A study of Mus musculus with 12 samples.

Results

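The 10 genes described here belong to the TGF-beta pathway and were measured in O1+ oligodendrocytes sorted from mouse brain: the ligand genes Tgfb1, Tgfb2 and Tgfb3, the latency gene Ltbp1, the receptor genes Tgfbr1 and Tgfbr2, the effector gene Smad3 and the feedback genes Smad6, Smad7 and Skil. They were chosen by gene symbol for their known roles, and are 10 of the 55376 symbols in the count table. Earlier results of these data were known at that time, so counts of called members are not independent support. All 10 were among the 17716 genes tested, which reached 1 CPM (a count scaled to the total of its library) in 4 or more samples.

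The study asked by RNA-Seq what happens in oligodendrocytes that lack JAB1, a subunit of the COP9 signalosome, and what the additional loss of the cell cycle inhibitor p21CIP1 does. The labels give every sample as C57BL/6 at postnatal day 40, and each sample held the sorted CD45- O1+ cells of 2 brains. There were 4 samples each of WT mice, of Cnp-Cre Jab1fl/fl mice, and of Cnp-Cre Jab1fl/fl p21CIP1-/- mice, called double mutants here. Both mutant genotypes carry the floxed Jab1 alleles (gene symbol Cops5) and a Cre recombinase driven by Cnp, which acts from late oligodendrocyte precursors onward and also in Schwann cells, whereas the p21CIP1 (Cdkn1a) null alleles are present in every cell of the double mutants. These null alleles came from B6.129S6(Cg)-Cdkn1a tm1Led/J mice, which the study lists as backcrossed and with another strain of origin than the C57Bl/6J of its Jab1fl/fl and Cnp-Cre lines, so a remainder of that strain in the double mutants cannot be told apart from p21CIP1 loss. A p21CIP1-/- genotype with intact Jab1 was not analysed here, so the effect of p21CIP1 loss alone cannot be told apart from its effect in JAB1-deficient brains.

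TGF-beta ligands are secreted in a latent form, bound to their own propeptide and to a latent TGF-beta binding protein such as the product of Ltbp1, and must be released before they act. The active dimer brings together the type II receptor (Tgfbr2) and the type I receptor kinase (Tgfbr1), which phosphorylates SMAD2 and SMAD3, and these enter the nucleus with SMAD4. SMAD6, SMAD7 and SnoN, the product of Skil, dampen the signal, and their genes are themselves induced by it, which makes them a feedback arm. In brain, TGF-beta is known for keeping microglia in their homeostatic state, for its part in blood vessel formation, for oligodendrocyte maturation, and as a secreted factor of senescent cells.

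Total counts ranged from 61485556 to 153495112 per sample, and 1 CPM corresponded to 61.5 counts in the smallest, so counting error was small beside the differences among samples. The deleted genes were checked first. Cops5 was at 134, 46.3, 128 and 105 CPM in WT replicates 1, 3, 5 and 6. It was at 44.9 to 89 CPM in Cnp-Cre Jab1fl/fl and 44.2 to 90.4 CPM in double mutants, so only WT replicate 3 lay within the mutant ranges. Its log2 fold change against WT was -0.62 (SE 0.36, adjusted p = 0.349, edgeR) in Cnp-Cre Jab1fl/fl and -0.82 (SE 0.39, adjusted p = 0.424, edgeR) in double mutants. Gene-level counts, which include any exon left in place, thus did not fully separate the genotypes. By qPCR the study found Cops5 reduced in sorted O1+ cells of Cnp-Cre Jab1fl/fl mice. Cdkn1a was at 16.0 to 85.4 CPM in WT, 379 to 636 CPM in Cnp-Cre Jab1fl/fl and 64.7 to 103 CPM in double mutants, below every Cnp-Cre Jab1fl/fl sample but not at 0 and not below WT (log2 fold change 1.08, SE 0.48, adjusted p = 0.394, edgeR). Reads of any exon outside the deleted part are counted too, so neither gene-level count checks its deletion. Marker genes of other cells were present and differed between samples. The summed level of 20 microglia markers was 151 to 363 CPM in WT, 1374 to 3538 CPM in Cnp-Cre Jab1fl/fl and 540 to 23916 CPM in double mutants, the last value being that of replicate 3, which stood apart. Of these markers 18 of 20 were called higher in Cnp-Cre Jab1fl/fl than in WT, as were 6 of 12 endothelial and 5 of 8 mural markers, whereas 8 of 12 markers of mature oligodendrocytes were called lower. The markers called lower include Cnp (log2 fold change -3.27, adjusted p = 0.0105, edgeR), the gene that drives the Cre. WT samples are not described as carrying this Cre, so an effect of the Cre allele cannot be told apart from JAB1 loss. The sum of the 12 oligodendrocyte markers was 46994 to 108607 CPM in WT, 9112 to 36013 CPM in Cnp-Cre Jab1fl/fl and 17187 to 54167 CPM in double mutants, so the sorted cell type was present in every sample. In bulk samples, fewer cells of a type and less RNA per cell cannot be told apart, and this holds for every difference below.

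In Cnp-Cre Jab1fl/fl samples 1 ligand gene, both receptor genes and 1 feedback gene of the pathway rose against WT. Tgfb1 rose 12.7-fold in mean CPM, Tgfbr1 4.59-fold, Tgfbr2 4.24-fold and Skil 4.32-fold, while Tgfb2, Tgfb3, Ltbp1, Smad3, Smad6 and Smad7 did not pass the test. These 4 of 10 members called higher, and 0 called lower, compare with 7.64% of all 17716 genes called, 5.19% higher and 2.46% lower, by edgeR's quasi-likelihood test (Benjamini-Hochberg adjusted p under 0.05). The log2 fold change was above 0 for 8 members and below 0 for 2, with a median of 1.62 over the members and 0.02 over all genes tested. For 4 members (Tgfb1, Tgfbr1, Tgfbr2 and Smad6) every Cnp-Cre Jab1fl/fl sample lay above every WT sample, a pattern shown by 9.88% of all genes tested, while 7.26% showed the opposite one and no member did.

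**Figure D1:**
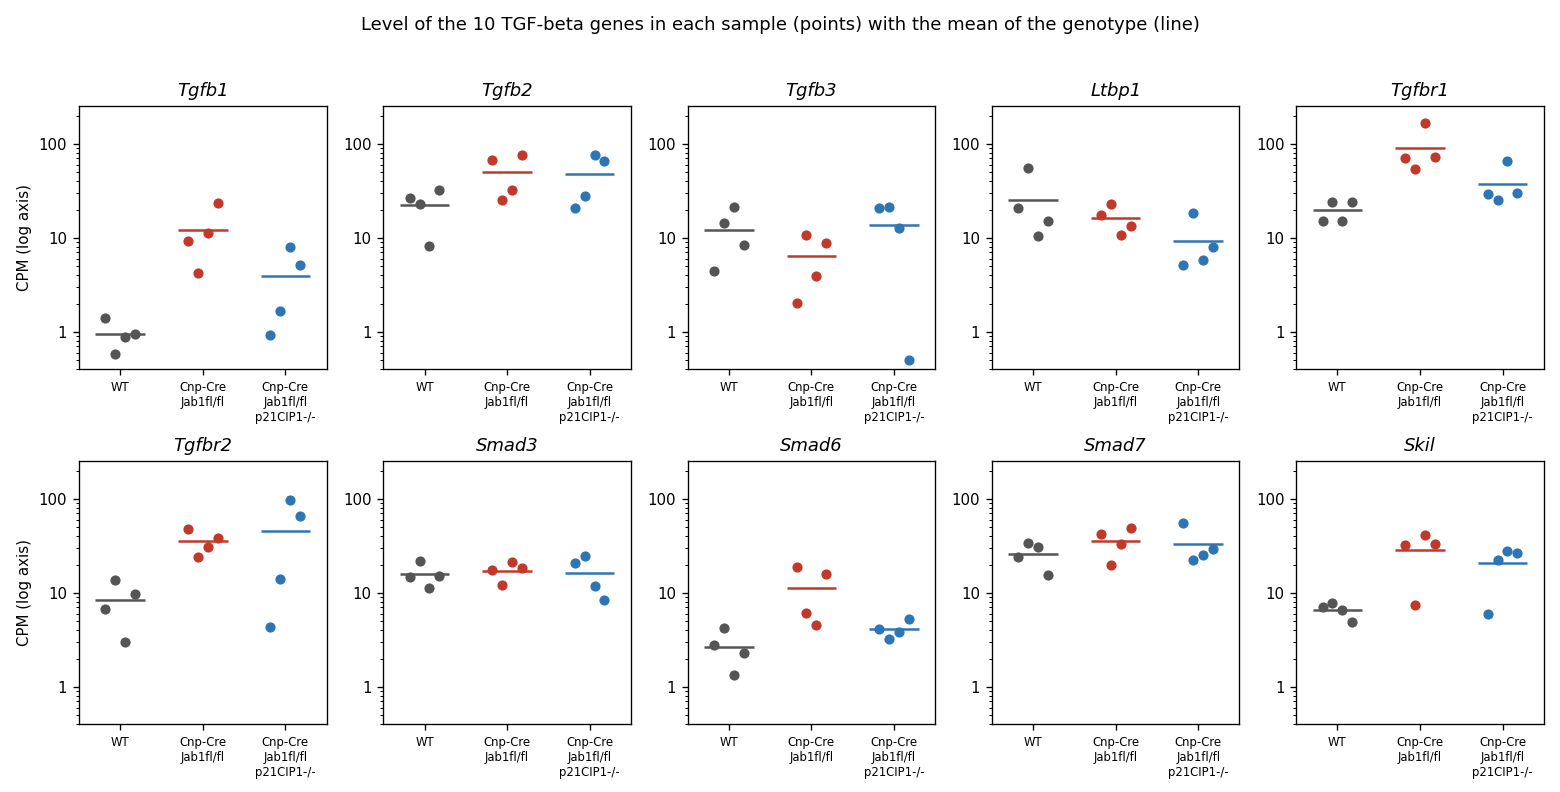
CPM of each of the 10 genes (log axis, the same range in every panel) in the 4 samples of each genotype, in order of replicate number from left to right, with the arithmetic mean of the genotype as a line. Tgfb1, Tgfbr1, Tgfbr2 and Smad6 have no Cnp-Cre Jab1fl/fl sample within the WT range, and Smad3 lies between 8.45 and 24.4 CPM throughout.

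Tgfb1 encodes TGF-beta 1, the ligand made by many immune and glial cells (mouse genome GRCm38, chr7:25687002-25705077, plus strand, 7 exon blocks). WT samples held little of it, 1.39, 0.582, 0.881 and 0.954 CPM in replicates 1, 3, 5 and 6. Cnp-Cre Jab1fl/fl samples held 9.29, 4.26, 11.4 and 23.3 CPM in replicates 1 to 4, and double mutants 0.919, 1.66, 7.98 and 5.11 CPM in replicates 1, 2, 3 and 5. The lowest Cnp-Cre Jab1fl/fl sample was thus above the highest WT sample, and double mutants split into a low pair within or just above the WT range (replicates 1 and 2) and a higher pair (replicates 3 and 5) that overlapped Cnp-Cre Jab1fl/fl. The mean was 0.951 ± 0.333 CPM in WT (SD, n = 4), 12.1 ± 8.07 CPM in Cnp-Cre Jab1fl/fl and 3.92 ± 3.26 CPM in double mutants. On the log2 scale, Cnp-Cre Jab1fl/fl exceeded WT by 3.67 (SE 0.71, adjusted p = 0.0117). Only 1 WT sample reached 1 CPM, so the gene passed the filter on low counts through the mutant samples, and without that filter its log2 fold change was 3.54 (adjusted p = 0.0234). The call held in each of the 8 fits that left out 1 sample.

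Tgfb2, a ligand made by neurons and glial cells, was at 8.2 to 32.0 CPM in WT, 25.2 to 75.7 CPM in Cnp-Cre Jab1fl/fl and 21 to 75.7 CPM in double mutants, and all 3 ranges overlapped. Its log2 fold change against WT was 1.16 (SE 0.48, adjusted p = 0.176) in Cnp-Cre Jab1fl/fl and 1.08 (SE 0.52, adjusted p = 0.433) in double mutants. Tgfb3, the third ligand, was scattered within genotypes, with 4.5 to 21.1 CPM in WT, 2.04 to 10.8 CPM in Cnp-Cre Jab1fl/fl, and 20.7, 21.5, 12.8 and 0.502 CPM in replicates 1, 2, 3 and 5 of the double mutants. Its log2 fold change against WT was -0.91 (SE 0.67, adjusted p = 0.473) in Cnp-Cre Jab1fl/fl and 0.18 (SE 0.86, adjusted p = 0.956) in double mutants. Tgfb2 overlaps Gm26169 and Gm29491, and Tgfb3 overlaps Ttll5, Gm37804 and Gm48008, all on the other strand, and whether reads were counted by strand is not given in the sources used here.

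Because the ligands differ in length, their make-up was compared as CPM per kilobase of exon. On this scale Tgfb1 made up 9.03%, 2.98%, 4.93% and 4.84% of the summed ligand level in WT replicates 1, 3, 5 and 6. In Cnp-Cre Jab1fl/fl its share was 23.9%, 19.6%, 41.8% and 38.4% in replicates 1 to 4, each above the WT range, with a mean of 30.9% ± 10.8 (SD, n = 4) against 5.44% ± 2.55. In double mutants the share was 3.99%, 6.09%, 16.7% and 15.6% in replicates 1, 2, 3 and 5, with a mean of 10.6% ± 6.47, so that every double mutant lay below every Cnp-Cre Jab1fl/fl sample and replicates 1 and 2 lay within the WT range. Tgfb2 transcripts were the largest part on average in every genotype, at 52.2% ± 24.1 in WT, 55.6% ± 11.6 in Cnp-Cre Jab1fl/fl and 57.7% ± 21 in double mutants. The Tgfb3 share was 42.3% ± 25.4, 13.5% ± 12.6 and 31.7% ± 27.1 in the same order, with overlapping ranges. The summed level of the 3 ligands was 8.33 ± 0.924 CPM per kb in WT, 17.1 ± 7.91 CPM per kb in Cnp-Cre Jab1fl/fl and 15.1 ± 4.99 CPM per kb in double mutants, and in both mutant genotypes the lowest sample lay above the highest WT sample (10 and 10.6 against 9.06 CPM per kb). No test was run on these shares and sums.

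**Figure D2:**
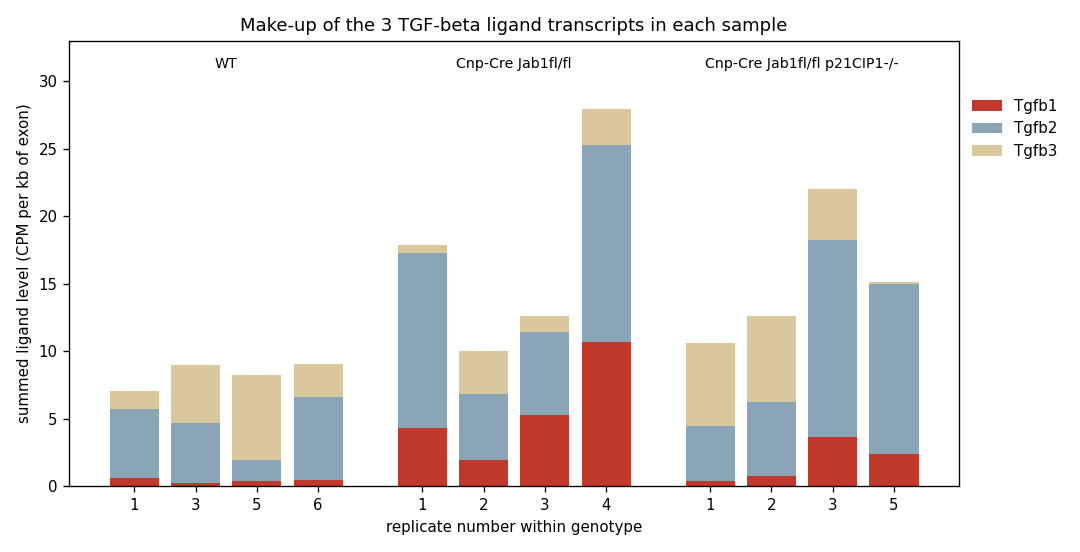
Summed level of the ligand transcripts in each sample (CPM per kilobase of exon), split into Tgfb1, Tgfb2 and Tgfb3, with samples grouped by genotype and labelled by replicate number. The Tgfb1 part is 2.98% to 9.03% of the bar in WT and 19.6% to 41.8% in Cnp-Cre Jab1fl/fl, and replicate 5 of the double mutants has almost no Tgfb3 (0.986%).

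Ltbp1 encodes the protein that tethers the latent ligand to the extracellular matrix. It was at 10.4 to 55.2 CPM in WT, 10.7 to 22.8 CPM in Cnp-Cre Jab1fl/fl and 5.18 to 18.2 CPM in double mutants. WT replicate 3, at 55.2 CPM, was well above the other WT samples, which reached 20.8 CPM, and 3 of 4 double mutants lay below the whole WT range. The log2 fold change was -0.65 (SE 0.52, adjusted p = 0.517) in Cnp-Cre Jab1fl/fl against WT and -1.46 (SE 0.61, unadjusted p = 0.0368, adjusted p = 0.358, edgeR) in double mutants against WT, and without WT replicate 3 these were 0.051 (adjusted p = 0.967) and -0.74 (adjusted p = 0.745). The gene contains Gm6276 on the same strand.

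Tgfbr1 encodes the type I receptor, the kinase that passes the signal on (chr4:47353222-47414931, plus strand, 12 exon blocks). WT replicates 1, 3, 5 and 6 were at 15.3, 24.2, 15.3 and 24.1 CPM. Cnp-Cre Jab1fl/fl replicates 1 to 4 were at 70.3, 53.6, 165 and 72.6 CPM, and replicates 1, 2, 3 and 5 of the double mutants at 29.2, 25.0, 65.3 and 30.3 CPM. Neither mutant genotype overlapped WT, and 3 of 4 double mutants lay below the lowest Cnp-Cre Jab1fl/fl sample. Means were 19.7 ± 5.12, 90.4 ± 50.5 and 37.4 ± 18.7 CPM (SD, n = 4 each) in WT, Cnp-Cre Jab1fl/fl and double mutants. Cnp-Cre Jab1fl/fl exceeded WT by 2.20 on the log2 scale (SE 0.40, adjusted p = 0.00901), and this was the only member called in all 17 alternative fits, with adjusted p from 2.67e-06 to 0.0439. Replicate 3 was the highest sample in both mutant genotypes, and without Cnp-Cre Jab1fl/fl replicate 3 Tgfbr1 was still called.

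Tgfbr2 encodes the type II receptor, which binds the ligand first (chr9:116084293-116175360, minus strand, 8 exon blocks). WT replicates 1, 3, 5 and 6 were at 6.79, 13.8, 3.01 and 9.75 CPM. Cnp-Cre Jab1fl/fl replicates 1 to 4 were at 47.7, 24.0, 31 and 38.8 CPM, all above WT. Double mutants fell into pairs, with replicates 1 and 2 at 4.33 and 13.9 CPM, within or just above the WT range, and replicates 3 and 5 at 96.1 and 66.5 CPM, above every Cnp-Cre Jab1fl/fl sample. The log2 fold change against WT was 2.09 (SE 0.48, adjusted p = 0.0246) in Cnp-Cre Jab1fl/fl and 2.44 (SE 0.85, unadjusted p = 0.0153, adjusted p = 0.270, edgeR) in double mutants. The first call was lost without WT replicate 1 (adjusted p = 0.0649), WT replicate 6 (0.0534), Cnp-Cre Jab1fl/fl replicate 1 (0.0651) or Cnp-Cre Jab1fl/fl replicate 4 (0.0588), with adjusted p over all 17 alternatives from 0.000349 to 0.220. Per kilobase, Tgfbr2 transcripts were 0.317 ± 0.122 times the level of Tgfbr1 transcripts in WT and 0.362 ± 0.162 times in Cnp-Cre Jab1fl/fl. In double mutants the ratio was 0.116, 0.437, 1.15 and 1.72 in replicates 1, 2, 3 and 5, so the pair of samples with high Tgfbr2 exceeded every other sample of the study.

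Smad3, the effector that carries the receptor signal to DNA, was not called in any comparison. Its mean was 15.8 ± 4.44 CPM in WT, 17.2 ± 3.77 CPM in Cnp-Cre Jab1fl/fl and 16.3 ± 7.51 CPM in double mutants (SD, n = 4 each). It was at 11.3 to 21.9 CPM in WT and 12.1 to 21.1 CPM in Cnp-Cre Jab1fl/fl. Double mutants were more spread, at 20.9, 24.4, 11.7 and 8.45 CPM in replicates 1, 2, 3 and 5. The log2 fold changes were 0.12 (SE 0.38), 0.03 (SE 0.44) and -0.08 (SE 0.45) in the 3 comparisons.

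Skil encodes SnoN, a nuclear corepressor that blocks SMAD complexes and is degraded when the pathway is switched on (chr3:31095058-31122577, plus strand, 7 exon blocks). WT replicates 1, 3, 5 and 6 were at 7.03, 7.87, 6.56 and 4.91 CPM, one of the narrowest WT spreads of the members. In Cnp-Cre Jab1fl/fl, replicates 1, 3 and 4 were at 32.3, 41.4 and 32.8 CPM, but replicate 2, at 7.42 CPM, lay within the WT range. In double mutants, replicates 2, 3 and 5 were at 22.4, 27.6 and 26.6 CPM and replicate 1, at 5.92 CPM, lay within the WT range. For Skil the log2 fold change against WT was 2.11 (SE 0.51, adjusted p = 0.0306) in Cnp-Cre Jab1fl/fl and 1.64 (SE 0.51, unadjusted p = 0.00877, adjusted p = 0.225, edgeR) in double mutants. The Cnp-Cre Jab1fl/fl call was kept without Cnp-Cre Jab1fl/fl replicate 2 (adjusted p = 0.00352) and lost without any other single sample (adjusted p from 0.0651 to 0.088). Without double mutant replicate 1, Skil was the 1 member called in double mutants against WT (log2 fold change 1.95, adjusted p = 0.0450).

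Smad6 and Smad7 encode inhibitory SMADs, of which SMAD7 blocks the TGF-beta receptors and SMAD6 mainly those of bone morphogenetic proteins. Smad6 was at 2.77, 4.28, 1.34 and 2.3 CPM in WT, 18.8, 6.11, 4.5 and 16.0 CPM in Cnp-Cre Jab1fl/fl and 4.1, 3.24, 3.79 and 5.26 CPM in double mutants. Every Cnp-Cre Jab1fl/fl sample was above WT, although replicate 3 was above the highest WT sample by little, and double mutants formed a narrow group, 4.1 ± 0.855 CPM (SD, n = 4), around the top of the WT range. For Smad6 the log2 fold change in Cnp-Cre Jab1fl/fl against WT was 2.09 (SE 0.67, unadjusted p = 0.00959, adjusted p = 0.0865, edgeR). DESeq2, the tool of the study, called it (2.10, adjusted p = 0.0147), as the 1 of 16 alternatives that did, and so called 5 of 10 members where it called 15.3% of all genes. Smad7 ran from 15.4 to 33.8 CPM in WT, 19.6 to 48.6 CPM in Cnp-Cre Jab1fl/fl and 22.5 to 54.9 CPM in double mutants, with log2 fold changes against WT of 0.47 (SE 0.37, adjusted p = 0.512) and 0.33 (SE 0.38, adjusted p = 0.767).

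The promoters of 3 members called higher in Cnp-Cre Jab1fl/fl than in WT are shown. The other called member, Skil, had no window. RefSeq windows of GRCm38.p6 were found for 7 member symbols, and the 250 bases before the annotated start are given 5′ to 3′ on the strand of the gene, in lower case with GGGCGG and its reverse complement CCGCCC (the GC box bound by SP1-type factors) in capitals. The Tgfb1 window is chr7:25686752-25687001 on the plus strand, that of Tgfbr1 is chr4:47352972-47353221 on the plus strand, and that of Tgfbr2 is chr9:116175364-116175613 on the minus strand.
Tgfb1: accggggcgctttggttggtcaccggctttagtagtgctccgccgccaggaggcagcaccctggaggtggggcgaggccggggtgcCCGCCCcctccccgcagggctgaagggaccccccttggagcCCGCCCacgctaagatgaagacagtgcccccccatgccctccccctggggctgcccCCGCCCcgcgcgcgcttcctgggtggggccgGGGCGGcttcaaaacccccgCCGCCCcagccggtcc
Tgfbr1: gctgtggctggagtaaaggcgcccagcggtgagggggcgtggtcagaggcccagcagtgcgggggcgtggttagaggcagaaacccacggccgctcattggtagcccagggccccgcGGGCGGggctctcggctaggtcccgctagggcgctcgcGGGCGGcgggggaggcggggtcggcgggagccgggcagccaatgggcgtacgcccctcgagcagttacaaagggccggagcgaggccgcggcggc
Tgfbr2: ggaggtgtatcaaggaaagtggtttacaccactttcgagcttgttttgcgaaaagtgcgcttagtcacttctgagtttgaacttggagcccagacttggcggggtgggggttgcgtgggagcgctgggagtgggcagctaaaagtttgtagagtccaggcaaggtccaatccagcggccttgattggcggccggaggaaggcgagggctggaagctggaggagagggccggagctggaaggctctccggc

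The GC content of the windows was 75.2% for Tgfb1, 74.8% for Tgfbr1 and 58.4% for Tgfbr2, against a median of 52.4% over all 32851 RefSeq windows of the same length. GC boxes numbered 5 for Tgfb1, 2 for Tgfbr1 and 0 for Tgfbr2, and 32.7% of all windows held at least 1. None of these windows held the SMAD-binding palindrome GTCTAGAC, the SMAD-type element CAGACA, the AP-1 site TGANTCA or the box TATAAA, searched on both strands, which were present in 0.167%, 17.1%, 6.75% and 12.4% of all windows. These motifs share no common match of their letters, and a second RefSeq window of Tgfbr1, chr4:47385966-47386215, held 1 CAGACA. A match or its absence describes the letters of these windows only.

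Levels of the members were ordered per kilobase of exon. In WT the 6 highest means were those of Smad7 (5.93 ± 1.84 CPM per kb), Tgfb2 (4.32 ± 1.96), Ltbp1 (3.68 ± 2.95), Tgfb3 (3.57 ± 2.14), Smad3 (3.11 ± 0.87) and Tgfbr1 (3.07 ± 0.80). Below them were Tgfbr2 (1.02 ± 0.559 CPM per kb), Skil (0.982 ± 0.185), Smad6 (0.899 ± 0.413) and Tgfb1 (0.437 ± 0.153). The lowest WT samples of Tgfb2, Ltbp1 and Tgfb3 (1.58, 1.5 and 1.33 CPM per kb) were below the highest of Tgfbr2 (1.69), so the 6 and the other 4 did not form separate groups. Only the step from Tgfbr1 to Tgfbr2 had no overlap between the 4 samples of neighbouring genes, and the other 8 pairs of neighbours did not differ beyond their spread. In Cnp-Cre Jab1fl/fl the order was Tgfbr1 (14.1 ± 7.90 CPM per kb), Tgfb2 (9.65 ± 4.86), Smad7 (8.19 ± 2.86), Tgfb1 (5.55 ± 3.70), Tgfbr2 (4.33 ± 1.24), Skil (4.24 ± 2.18), Smad6 (3.83 ± 2.40), Smad3 (3.39 ± 0.741), Ltbp1 (2.34 ± 0.767) and Tgfb3 (1.90 ± 1.21). Here all 9 pairs of neighbours overlapped. Tgfbr1 moved from rank 6 in WT to rank 1 in Cnp-Cre Jab1fl/fl and Tgfb1 from rank 10 to rank 4, while Tgfb3 moved from rank 4 to rank 10. In double mutants Tgfb2 (9.16 ± 5.22 CPM per kb) and Smad7 (7.54 ± 3.37) were highest, Tgfbr1 was at rank 3 and Tgfb1 at rank 8, and all 9 pairs of neighbours again overlapped.

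Double mutants were compared with WT and with Cnp-Cre Jab1fl/fl to ask how the pathway genes stand when p21CIP1 is also missing. Both comparisons share samples with the first one, so the values are set side by side and are not independent. Against WT, 0 of 10 members were called in double mutants by edgeR, where 0.192% of all genes tested were called, 0.175% higher and 0.0169% lower. At an unadjusted p under 0.05 there were 5 members (Tgfb1, Tgfbr1, Tgfbr2, Skil and Ltbp1), where 12.4% of all genes tested were (2194 genes). DESeq2 called 2 members, Tgfbr2 (log2 fold change 2.49, adjusted p = 0.0279) and Skil (1.67, adjusted p = 0.0372), and 4.94% of all genes to which it gave an adjusted p (862 of 17460). The log2 fold change was above 0 for 9 members and below 0 for 1, with a median of 0.76 against 0 over all genes tested. Only Tgfbr1 had no overlap with WT, a pattern seen upward in 4.52% and downward in 3.58% of all genes tested, and its log2 fold change was 0.92 (SE 0.39, adjusted p = 0.361, edgeR). Tgfb1 stood at 2.04 (SE 0.90, adjusted p = 0.388, edgeR) on the log2 scale, with 3 of 4 double mutants above the highest WT sample.

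Against Cnp-Cre Jab1fl/fl, 0 of 10 members were called in double mutants by edgeR, and 0% of all 17716 genes were called in either direction. At an unadjusted p under 0.05 there were 2 members and 885 genes in all (5%), and DESeq2 called 0 members and 87 genes (0.499%). The 2 members were Tgfbr1, with a log2 fold change of -1.27 (SE 0.45, unadjusted p = 0.0162, adjusted p = 0.902, edgeR), and Smad6, with -1.47 (SE 0.64, unadjusted p = 0.0425, adjusted p = 0.968, edgeR). Tgfb1 differed by -1.63 (SE 0.81, unadjusted p = 0.0719, adjusted p = 0.980, edgeR), with a mean 0.324 times that of Cnp-Cre Jab1fl/fl, and Tgfbr2 by 0.35 (SE 0.74). Of the members 8 were lower and 2 higher in double mutants, with a median of -0.29 against 0.02 over all genes tested, and none had separate ranges, which 1.99% of all genes tested had downward and 1.23% upward.

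**Figure D3:**
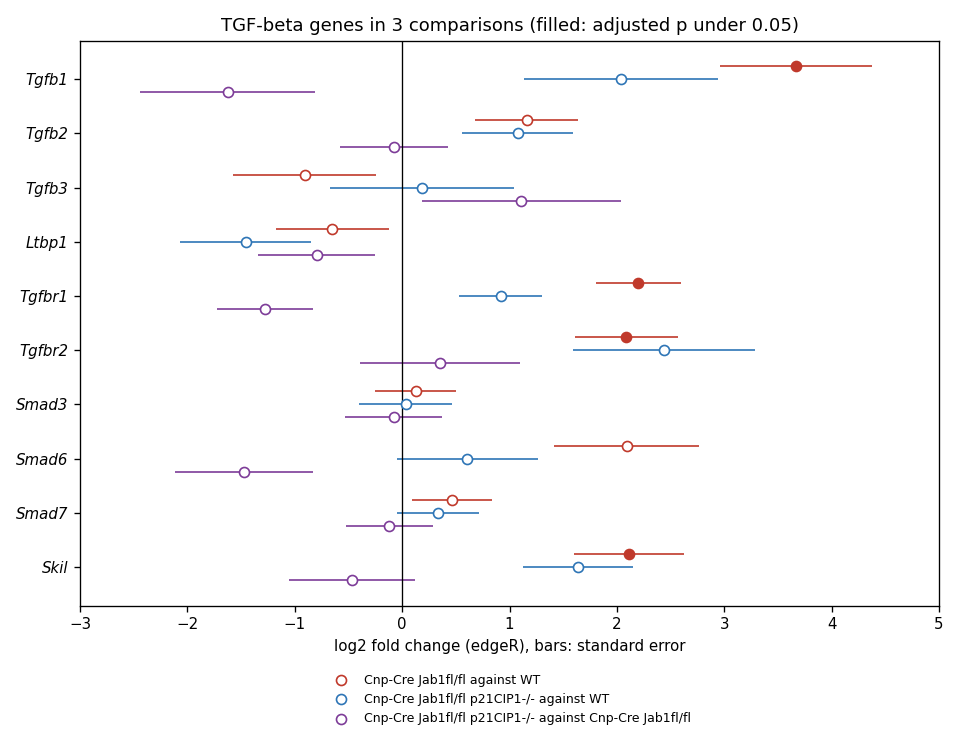
Log2 fold change of each member from edgeR (point) with its standard error (bar) in Cnp-Cre Jab1fl/fl against WT (red), double mutants against WT (blue) and double mutants against Cnp-Cre Jab1fl/fl (purple), with filled points for an adjusted p under 0.05. The 4 filled points are Tgfb1, Tgfbr1, Tgfbr2 and Skil in the first comparison, and Smad3 is near 0 in all 3.

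The rest of the pathway was read from 4 lists of 60 further genes, of which 53 were tested. In Cnp-Cre Jab1fl/fl against WT, 7 of these rose and 1 fell, with 35 above 0, 18 below 0 and a median log2 fold change of 0.60, where 5.19% of all genes tested rose, 2.46% fell and the median was 0.02. The lists are small, so 1 call in a list of 5 or 15 genes is not read as a result about that list. Of the receptors and coreceptors, 1 of 5 tested genes rose, Acvrl1, a type I receptor best known from endothelial cells, from 12.4 to 29.3 CPM in WT to 21 to 147 CPM in Cnp-Cre Jab1fl/fl (log2 fold change 2.38, SE 0.55, adjusted p = 0.0256). The coreceptor genes Eng (1.89, SE 0.57, adjusted p = 0.0704) and Tgfbr3 (1.68, SE 0.64, adjusted p = 0.142) did not pass.

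Of 16 SMADs, cofactors and turnover genes, 2 rose and 0 fell. Pmepa1, which encodes a membrane protein that sequesters SMADs and is itself induced by TGF-beta, was at 13.4 to 30.9 CPM in WT and 50.4 to 132 CPM in Cnp-Cre Jab1fl/fl, with no overlap (2.05, SE 0.39, adjusted p = 0.0108). Ski, the corepressor related to SnoN, was at 26.9 to 30.8 CPM in WT and 48.5 to 111 CPM in Cnp-Cre Jab1fl/fl, also with no overlap (1.44, SE 0.31, adjusted p = 0.0180). Tgif1, another corepressor, had a log2 fold change of 1.74 (SE 0.59, adjusted p = 0.106). The median log2 fold change of this list was -0.01, with 8 genes above 0 and 8 below.

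Among 17 tested targets that TGF-beta induces in other cells, 4 rose and 0 fell, with a median log2 fold change of 2.08. Timp1, an inhibitor of matrix proteases, had 2 counts over all 4 WT samples and 1228 over the Cnp-Cre Jab1fl/fl samples, a ratio of 878 per total count (95% counting interval 243 to 7260, adjusted p = 0.0220). Replicate 4 had none while the others were at 3.91, 2.58 and 8.98 CPM, and the gene passed the filter on low counts through mutant samples alone, so that it had to differ from WT. Junb, a subunit of the factor AP-1, went from 5.73 to 16.4 CPM in WT to 33.4 to 77.3 CPM in Cnp-Cre Jab1fl/fl (2.31, SE 0.45, adjusted p = 0.0117). Fn1, which encodes the matrix protein fibronectin, was at 8.76 to 34.1 CPM in WT and 19.9 to 171 CPM in Cnp-Cre Jab1fl/fl, with replicate 2 within the WT range (2.58, SE 0.63, adjusted p = 0.0314).

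Of 15 tested genes for latency and activation, 0 rose and 1 fell. Itgb8, the integrin subunit that frees latent TGF-beta on glial cells, was at 66.8, 108, 56.0 and 56.7 CPM in WT replicates 1, 3, 5 and 6 and at 19.0, 25.4, 43.8 and 28.6 CPM in Cnp-Cre Jab1fl/fl replicates 1 to 4. The ranges did not overlap and the log2 fold change was -1.30 (SE 0.35, adjusted p = 0.0453). Double mutants, at 21.9 to 47.7 CPM, were also below every WT sample (-1.14, SE 0.35, unadjusted p = 0.00811, adjusted p = 0.221, edgeR). Nrros, which anchors latent TGF-beta on microglia, had a log2 fold change of 1.31 (SE 0.52, adjusted p = 0.156), and Mmp2, a matrix protease, one of 1.36 (SE 0.65, adjusted p = 0.246).

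In double mutants against WT, 0 of the 53 tested pathway genes were called by edgeR, with 11 at an unadjusted p under 0.05, against 12.4% of all genes tested, and 7 called by DESeq2, against 4.94%. Nearest to the threshold was Timp1, at 2.28 to 3.13 CPM in replicates 2, 3 and 5 and 0.32 CPM in replicate 1 (adjusted p = 0.0736, edgeR). It was followed by Klf10, a transcription factor gene induced early by TGF-beta (2.21, SE 0.46, adjusted p = 0.0875) and named after its values were seen, and by Junb (2.59, SE 0.55, adjusted p = 0.0925). Against Cnp-Cre Jab1fl/fl, 0 of the 53 genes were called by edgeR and 0 by DESeq2, and 1 had an unadjusted p under 0.05, Pmepa1 (-1.05, SE 0.40, unadjusted p = 0.0250, adjusted p = 0.95, edgeR).

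The markers of other cell types moved with several members. Endothelial marker sums were 1008, 776, 421 and 868 CPM in WT replicates 1, 3, 5 and 6, 7113, 1002, 3177 and 5357 CPM in Cnp-Cre Jab1fl/fl replicates 1 to 4, and 834, 975, 4463 and 7807 CPM in double mutant replicates 1, 2, 3 and 5. The 5 mutant samples with endothelial sums from 3177 to 7807 CPM were the 5 with the highest Tgfbr2, and they also held the 5 highest values of Skil. Cnp-Cre Jab1fl/fl replicate 2, with an endothelial sum inside the WT range, had a WT level of Skil and held Tgfb1, Tgfbr1 and Tgfbr2 above every WT sample (4.26, 53.6 and 24.0 CPM). Its microglia sum (1374 CPM, at most 363 in WT) and mural sum (1024 CPM, at most 509 in WT) were also above WT. Double mutant replicates 1 and 2 also had endothelial sums inside the WT range. Their Skil level was 5.92 CPM, within the WT range, in replicate 1 and 22.4 CPM, above every WT sample, in replicate 2. Mural marker sums ran from 203 to 509 CPM in WT, 994 to 1482 CPM in Cnp-Cre Jab1fl/fl and 281 to 1708 CPM in double mutants. No defining endothelial, mural or microglia marker was at 0 in every sample of a genotype.

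Microglia marker sums were 228, 151, 363 and 290 CPM in WT, 3441, 1374, 2288 and 3538 CPM in Cnp-Cre Jab1fl/fl, and 540, 1141, 23916 and 2648 CPM in double mutants, in the same order of replicates. Tgfb1 mostly followed this sum. It was at 0.582 to 1.39 CPM in the 5 samples with sums from 151 to 540 CPM, at 1.66 and 4.26 CPM with sums of 1141 and 1374 CPM, and at 5.11 to 23.3 CPM in the 4 samples with sums from 2288 to 3538 CPM. Double mutant replicate 3, with the sum of 23916 CPM, was at 7.98 CPM of Tgfb1 and 65.3 CPM of Tgfbr1. The 11 leukocyte markers summed to 0.753 to 2.90 CPM in WT, 33.7 to 124 CPM in Cnp-Cre Jab1fl/fl and 5.81 to 196 CPM in double mutants. Of these, Cd2, Ms4a1, S100a8 and S100a9 were at 0 in every Cnp-Cre Jab1fl/fl sample, and Cd3e, Cd2, Ms4a1, S100a9 and Itgal in every WT sample. Only 2 were tested. Ptprc, the gene of CD45, was called higher in Cnp-Cre Jab1fl/fl than in WT (log2 fold change 7.16, SE 1.29, adjusted p = 0.00889, edgeR). Ly6c2 was not called (2.86, SE 0.85, adjusted p = 0.065, edgeR). Astrocyte markers, at 6136 to 15729 CPM in WT and 4094 to 9752 CPM in Cnp-Cre Jab1fl/fl, had 0 of 12 genes called. The part of any of these cells in the levels of the members was not tested.

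**Figure D4:**
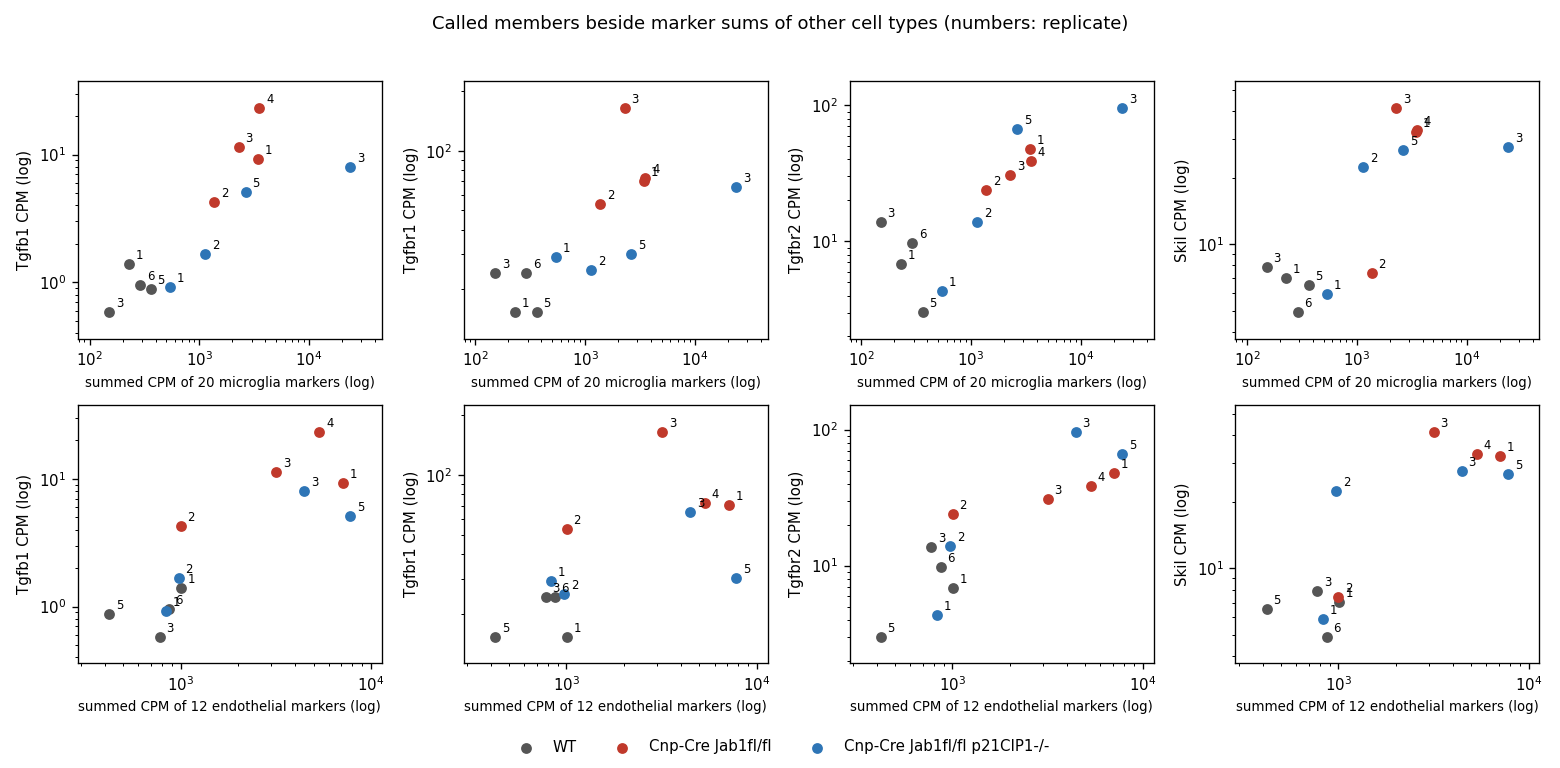
CPM of Tgfb1, Tgfbr1, Tgfbr2 and Skil against the summed CPM of 20 microglia markers (top) and 12 endothelial markers (bottom) in the 12 samples, on log axes, coloured by genotype and numbered by replicate. Tgfb1 is at 0.582 to 1.39 CPM at microglia sums from 151 to 540 CPM and at 5.11 to 23.3 CPM at sums from 2288 to 23916 CPM, and the 5 samples with the highest endothelial sums have the 5 highest Tgfbr2 values.

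The genes whose log2(CPM + 1) was most like that of each member over the 12 samples were listed by Pearson's r. The samples share genotype and cell mixture, so these values describe the likeness only. Nearest to Tgfb1 were Hcls1 (r = 0.96), Gpsm3 (0.95) and Nlrp1c-ps (0.95), and nearest to Tgfbr1 were Naip2, Inpp5d and Lrmp (0.96 each). Several of these, such as Hcls1 and Inpp5d, are known from blood and immune cells. Nearest to Tgfbr2 were Ets1, Cdc42ep5 and F11r (0.97 each), of which Ets1 is a transcription factor and F11r a junction protein of endothelial cells. Skil was most like Lmo7 (0.95), Iqgap1 (0.95) and Sgms1 (0.94), and Smad6 most like Iglon5 (0.93), Lama4 (0.92), a laminin of vessel walls, and Snord17 (0.91). For Tgfb2 the nearest genes were Cplx2 (0.97), Trim34a (0.96) and Ramp2 (0.96), and for Smad3 they were Smarcal1 (0.95), Mafg (0.93) and Stxbp5 (0.93). For Tgfb3 they were Ddx59 (0.91), Hid1 (0.89) and Plk3 (0.88), and for Ltbp1 Boc (0.92), Lrfn4 (0.89) and Edrf1 (0.87). Smad7 had the weakest neighbours, Ing5 (0.87), Hipk3 (0.84) and Jmy (0.83).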

How the data were processed

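RNA-Seq was performed on 12 samples of sorted O1+ CD45- cells, 4 per genotype, and the labels gave each sample its genotype and number. The authors amplified RNA with a SMART-Seq v4 kit, trimmed reads with Trimmomatic 0.32, used STAR 2.5.3a for alignment to GRCm38, and assigned reads to GENCODE basic genes by featureCounts. Strand and multimapping settings are not given in the sources used here. The deposited file holds raw counts for each gene symbol, with no normalization.

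For the values shown, CPM (counts scaled to the library total) were calculated with TMM factors of the 12 samples. Levels per kilobase used the union of exons of GENCODE M21, which is on the build of the authors but is an older release than theirs. Each comparison was tested by the quasi-likelihood method of edgeR (version 4.0.16, in R 4.3.3) over the 8 samples of its genotypes. Tested were the 17716 genes that reached 1 CPM in 4 or more of the 12 samples. Genes with a Benjamini-Hochberg adjusted p under 0.05 were called. The study used DESeq2, run here as an alternative (DESeq2 1.42.0), as were limma-voom with quality weights (limma 3.58.1), other normalizations and filters, a single fit of 12 samples, the replicate number as a block, and each sample left out. The ratio against 2 WT counts carries an exact 95% interval that covers counting error only. Scripts were tested on counts simulated from Cnp-Cre Jab1fl/fl against WT, with 200 of 17716 genes changed by 3 on the log2 scale. There edgeR recovered 64% of the changed genes, and 5.88% of its calls were false. DESeq2 recovered 80%, and 25.6% of its calls were false. For limma-voom these were 50.5% and 1.94%. No libraries of a genotype were alike enough to be repeats of each other (smallest chi-square per degree of freedom, 210).

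The members, the 4 pathway lists and the marker lists were chosen with earlier results of these data known, so their counts are not independent support. Named were all members, every pathway gene called in any comparison, the 3 pathway genes per list with the smallest unadjusted p in Cnp-Cre Jab1fl/fl against WT, and the 3 tested genes most like each member, leaving out symbols of clones and predicted genes. Promoter windows came from RefSeq (GRCm38.p6), and 250 bases of each were used. The window of Smad7 and the values of 1 called pathway gene are not reported here.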

Additional observations from a re-analysis of the deposited data

Results flagged for a closer look

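In each genotype, the sample farthest from the rest was sought for every member by Dixon's ratio, the gap to the nearest sample divided by the range of the 4 samples. Of 30 groups, 2 passed the 95% critical value, both for Tgfbr1 and both in a replicate 3, and chance alone flags about 1 in 20 groups. Tgfbr1 was at 165 CPM in Cnp-Cre Jab1fl/fl replicate 3, against 53.6 to 72.6 CPM in the other samples of that genotype. Tgfbr1 was at 65.3 CPM in double mutant replicate 3, against 25.0 to 30.3 CPM in the others (ratio 0.868). The Cnp-Cre Jab1fl/fl sample had the lowest oligodendrocyte marker sum of the study, 9112 CPM, and the double mutant sample the highest microglia marker sum, 23916 CPM, and the part of either in the Tgfbr1 level was not tested.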

How the results depend on the processing

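Tgfbr1 in Cnp-Cre Jab1fl/fl against WT was called in all 17 alternatives, Tgfb1 in 14 of 16, Tgfbr2 in 9 of 17 and Skil in 7 of 17. In that comparison, 4 members, 8 pathway genes and 1354 genes were called, against 34 genes in double mutants against WT and 0 in double mutants against Cnp-Cre Jab1fl/fl. DESeq2 called 2689, 862 and 87 genes in these comparisons, 14 and 7 pathway genes in the first and second, and 5 (with Smad6) and 2 members in them. With no filter, 2 members (Tgfb1 and Tgfbr1) were called in the first comparison, and 21 genes in the second. With a mean of at least 10 CPM there were 140 genes and 2 pathway genes in the second and 5 genes in the third, and Tgfb1 and Smad6 were not tested. All 12 samples in 1 fit gave 164 genes and 2 pathway genes in the second, and limma-voom 1 gene in the third. No filter moved the median of all genes by -0.112 in the first comparison. Leaving out 1 sample gave 678 to 1863 genes, 2 to 4 members and 3 to 10 pathway genes in the first comparison, 1 to 274 genes, 0 to 1 members and 0 to 2 pathway genes in the second, and 0 to 2 genes in the third. The share of Tgfb1 among the ligands was not put to a real test by its alternatives. Library scaling cancels within a sample, and dropping 1 of 4 samples always moves a mean by less than 1 SD. With 1 sample dropped, the mean share spanned 8.56% to 12.8% for double mutants. For Cnp-Cre Jab1fl/fl it spanned 27.3% to 34.7%, and for WT 4.25% to 6.27%.

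Replicate numbers recur across genotypes, but same-numbered samples did not deviate together (r from -0.19 to 0.08), so the numbers are not taken as pairs. With the replicate block, 660 genes, 1 member (Tgfbr1) and 1 pathway gene were called in the first comparison and 1 gene in the second. With the block and all 12 samples these were 79, 1 (Tgfbr1), 0 and 8. The log2 fold change of Tgfb3 in double mutants against WT then turned to -0.66 (-0.65 with 12 samples), and that of Smad3 to -0.29 (-0.10), and to -0.21 in Cnp-Cre Jab1fl/fl against WT with 12 samples. Against Cnp-Cre Jab1fl/fl, the block turned Tgfbr2 to -0.85 (-0.27 with 12 samples), Smad3 to 0.14 (0.11), Smad7 to 0.063 (0.046) and, with 12 samples, Tgfb2 to 0.26.

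Other turns in direction were of members not called in the comparison. No filter gave -0.017 for Smad3 in double mutants against WT. Limma-voom gave -0.10 for Tgfb3 against WT and -0.51 for Tgfbr2 against Cnp-Cre Jab1fl/fl. With 1 sample left out, log2 fold changes spanned -0.91 to 0.051 for Ltbp1 and -0.006 to 0.31 for Smad3 in Cnp-Cre Jab1fl/fl against WT. In double mutants against WT they spanned -0.091 to 0.63 for Tgfb3, -0.21 to 0.25 for Smad3 and -0.016 to 0.50 for Smad7. Against Cnp-Cre Jab1fl/fl they spanned -0.31 to 0.75 for Tgfbr2, -0.38 to 0.22 for Tgfb2, -0.34 to 0.14 for Smad3 and -0.47 to 0.10 for Smad7. The cause of these changes was not tested.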
